A study of Homo sapiens with 32 samples.

Results

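The comparison described here set 3 acute myeloid leukaemia (AML) cell lines with an activated tyrosine kinase against 4 lines without either of the same kinase lesions, all 7 carrying an alteration of KMT2A. The lines were chosen by name from a series of 32 established human lines with 1 expression array each, so that 25 lines lay outside the comparison. The labels give the line names and no genotype, and the lesions given here are background knowledge of these lines. The kinase-lesion lines were EOL-1, with a KMT2A partial tandem duplication and the FIP1L1-PDGFRA fusion, MOLM-13, with KMT2A-MLLT3 and an internal tandem duplication of FLT3 (FLT3-ITD), and MV4-11, with KMT2A-AFF1 and FLT3-ITD. The other KMT2A lines were ML-2 and SHI-1, with KMT2A-AFDN, and NOMO-1 and THP-1, with KMT2A-MLLT3. No line was treated. EOL-1, ML-2, NOMO-1 and THP-1 grew in RPMI 1640 with serum, SHI-1 grew in IMDM with serum, and the labels name no medium for MOLM-13 or MV4-11. Each line stands for 1 patient's leukaemia. ML-2, NOMO-1 and THP-1 are also known for RAS mutations, so the kinase lesion cannot be told apart from RAS status for these 3 lines. The KMT2A lesions differ between the groups too, except that KMT2A-MLLT3 occurs in both.

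KMT2A is a histone methyltransferase, and its fusions hold a leukaemic progenitor programme in place. FLT3 and PDGFRA are receptor tyrosine kinases of the same class. When such a receptor is locked in its active form it signals without ligand through STAT5, RAS-MAPK and PI3K, and STAT5 drives transcription of PIM1, a serine/threonine kinase that promotes survival and growth, and of CISH, a feedback inhibitor of cytokine receptors. The series was made to relate expression to the response of these lines to PIM inhibitors, and the response was not used here.

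Levels are log2(signal + 16), in which 1 unit is a doubling of signal plus 16, so that differences of genes of low signal are understated. Every difference below is the mean of the 3 kinase-lesion lines minus the mean of the 4 other KMT2A lines on that scale. A ± sign gives its standard error from limma, a linear model with a shared estimate of the spread across genes, and adjusted p-values cover all 12340 genes tested. Groups are said not to overlap when every kinase-lesion line lay above, or below, every other KMT2A line.

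The arrays of the groups were not alike. The median signal was 69.6 to 81.5 on the kinase-lesion arrays and 89.6 to 198.4 on the others, with NOMO-1 the highest, and 21.4% to 24.7% of probe sets lay below 16 on the former against 5.99% to 19.9% on the latter (exact permutation test, two-sided p = 0.0857). The GAPDH 3′/5′ signal ratio, a measure of RNA degradation, was 0.994 in EOL-1, 2.61 in MOLM-13, 1.14 in MV4-11, 5.97 in ML-2, 2.84 in NOMO-1, 1.24 in SHI-1 and 2.42 in THP-1 (p = 0.1714 on the log2 scale by the same exact test). Ratios above 2 thus occurred in 1 of 3 kinase-lesion lines and in 3 of 4 others. Among the 6 myeloid marker genes followed (PTPRC, SPI1, LYZ, MPO, CSF2RA and LYN), at least 5 exceeded the series median (6.73) in every one of the 7 lines.

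The receptors that carry the lesions come first. FLT3, the receptor for FLT3 ligand, lay at 11.16 in EOL-1, 13.17 in MOLM-13 and 13.06 in MV4-11, against 9.07 in ML-2, 9.81 in NOMO-1, 5.85 in SHI-1 and 9.35 in THP-1. The 2 FLT3-ITD lines were the highest of all 32 lines, EOL-1 came next among the 7, and the groups did not overlap. The difference was 3.95 ± 0.93 (15.4-fold), and it did not pass the test (adjusted p = 0.295). PDGFRA was not tested, since the probe set chosen for it was low in most lines, but another of its 4 probe sets read 11.24 in EOL-1 and 4.15 to 7.27 in the other 6 lines. That probe set reached at most 6.41 in the 25 remaining lines and was picked after its values were seen. KMT2A was looked at for ML-2, a line known to have lost its normal KMT2A copy. On the probe set with the highest mean, KMT2A was 6.15 in ML-2 and 9.20 to 11.32 in the other 6 lines, and the 25 remaining lines lay at 9.80 or above. Its probe sets did not all follow this. Another read 4.78 in ML-2 and 8.13 to 10.94 in the other 6, but 1 further probe set read 9.18 in ML-2, the highest of the 7 lines, and 6.78 to 8.81 in the others.

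KIT, the stem cell factor receptor, and CSF1R, the macrophage colony-stimulating factor receptor, belong to the same receptor class. KIT was 6.56 to 8.81 in the kinase-lesion lines and 4.89 to 10.13 in the others, a difference of 0.05 ± 1.25. CSF1R was 7.84 to 10.09 and 7.46 to 10.60, a difference of 0.27 ± 0.85. For each of these receptors the ranges of the groups overlapped.

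PIM1 had the smallest p-value of all genes tested. Its level was 13.15 in EOL-1, 12.70 in MOLM-13 and 12.36 in MV4-11, against 8.85 in ML-2, 10.00 in NOMO-1, 8.78 in SHI-1 and 8.75 in THP-1. The kinase-lesion lines lay within 1 unit of one another, 3 of the other lines lay close together, and NOMO-1 stood above those 3 but below every kinase-lesion line. The difference was 3.64 ± 0.42 (12.5-fold), with an adjusted p of 0.0813, so PIM1 did not pass at 0.05. Without NOMO-1 the difference was 3.94 with an adjusted p of 0.0211, and PIM1 was then the only gene called. In the 25 remaining lines PIM1 ran from 7.16 to 13.94 with a median of 10.93, so that the kinase-lesion lines lay above that median and the other KMT2A lines below it. The remaining PIM kinases did not separate the groups. PIM2 was 8.85 to 9.75 in the kinase-lesion lines and 8.75 to 9.58 in the others, and PIM3 was 10.93 to 11.52 and 10.97 to 11.70.

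**Figure D1:**
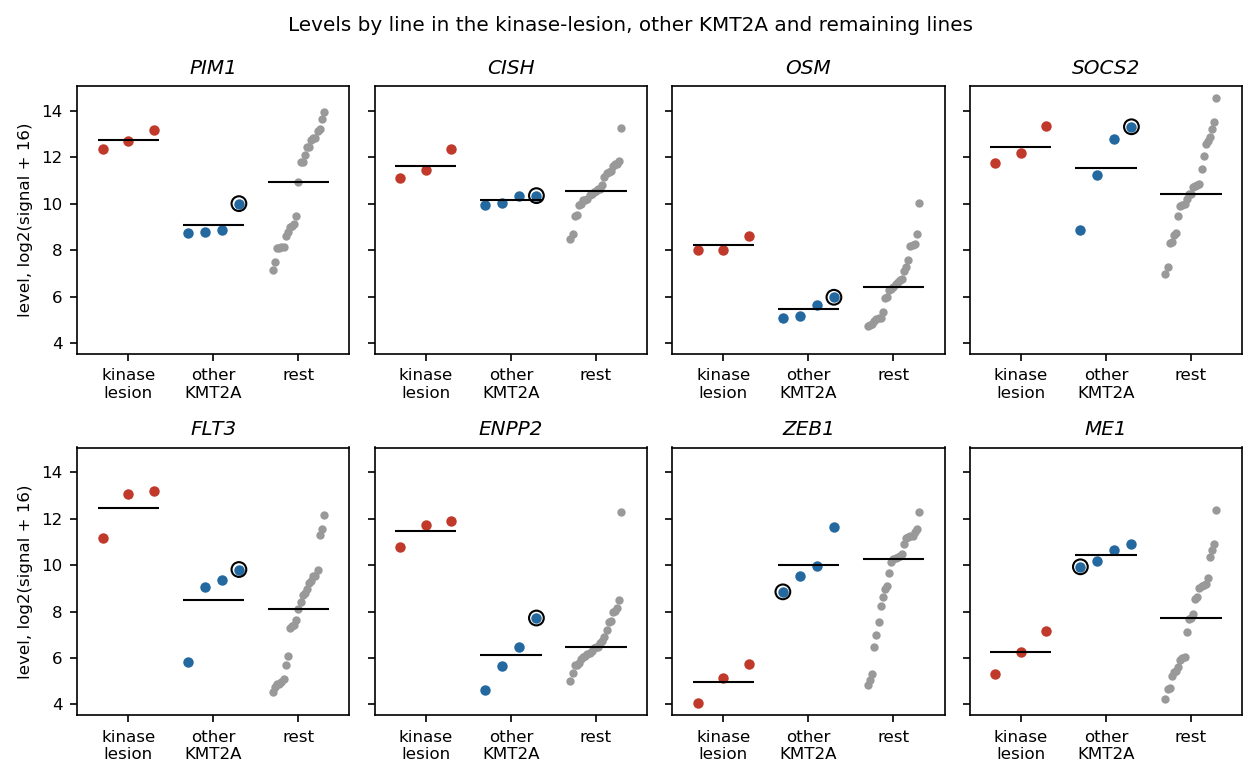
Levels of 8 genes in log2(signal + 16) for the 3 kinase-lesion lines (red), the 4 other KMT2A lines (blue, NOMO-1 circled) and the 25 remaining lines (grey), 1 point per line; bars are the means of the first 2 groups and the median of the remaining lines. PIM1, CISH, OSM, FLT3 and ENPP2 are higher and ZEB1 and ME1 lower in every red point than in every blue one, while SOCS2 overlaps.

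Of 12340 genes, 0 passed an adjusted p of 0.05 by limma (0.0% called), while 596 were higher (4.83%) and 701 lower (5.68%) in the kinase-lesion lines at an unadjusted p under 0.05. All kinase-lesion lines lay above all others for 778 genes (6.3%) and below them for 863 (6.99%). Without NOMO-1 these numbers were 983 (7.97%) and 1141 (9.25%). Centring each array on its median, which shifted the median difference of all genes from -0.07 to 0.42, gave 1715 genes above and 301 below. The split also moved with level. Of the 25% of genes with the highest mean level 11.9% lay above and 2.72% below, whereas of the 25% with the lowest 0.972% lay above and 10.8% below. The kinase-lesion arrays had the lower medians, and the part of this in the counts was not tested.

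STAT5-regulated genes were the signalling list with PIM1 in it. Of 15 tested members, 3 lay above in all kinase-lesion lines (PIM1, CISH and OSM) and 0 below, against 6.3% of all genes above. The list's median difference was 0.87 against -0.07 over all genes, with 9 positive and 6 negative differences. Without NOMO-1, 4 members lay above and 1 below, against 7.97% and 9.25% of all genes. The list's median was 0.31 on arrays of low GAPDH ratio and 0.75 on those of high ratio. CISH was 12.34 in EOL-1, 11.45 in MOLM-13 and 11.10 in MV4-11, against 9.93 in ML-2, 10.34 in NOMO-1, 10.32 in SHI-1 and 10.02 in THP-1. The other KMT2A lines were tightly grouped, and all 3 CISH probe sets separated the groups. The difference was 1.48 ± 0.38 (adjusted p = 0.348). OSM, which encodes the cytokine oncostatin M, was 7.998 in EOL-1, 8.02 in MOLM-13 and 8.61 in MV4-11, against 5.08 in ML-2, 5.97 in NOMO-1, 5.65 in SHI-1 and 5.14 in THP-1. Its levels in the other KMT2A lines lay under the series median of 6.73, and the difference was 2.75 ± 0.53 (adjusted p = 0.217). OSM therefore entered the test only through the kinase-lesion lines, which fixed its separation, so its place in the count is no support. On the second OSM probe set the groups overlapped, with MOLM-13 at 5.67 below ML-2 at 6.07 and NOMO-1 at 6.76.

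Other STAT5 targets overlapped between the groups. SOCS2, a feedback inhibitor like CISH, was 11.74 to 13.34 in the kinase-lesion lines, but NOMO-1 and SHI-1 stood at 13.30 and 12.79, and the difference was 0.87 ± 0.95. MYC was 13.99 in EOL-1, 12.45 in MOLM-13 and 12.75 in MV4-11, while SHI-1 at 12.83 lay among them and the other 3 lines at 10.75 to 11.95. IL2RA, the interleukin-2 receptor alpha chain and a gene picked after its values were seen, was at 10.62 in EOL-1 and at 4.87 to 7.64 in the other 6 lines. STAT5 is known to bind TTCNNNGAA, a pattern that reads the same on both strands. The CISH promoter is shown because it carries 4 copies, which do not overlap, where 9.38% of the 27305 genes with a promoter window of 300 bases in the RefSeq table hold at least 1. The stretch below is the 250 bases before the CISH start in GRCh38.p14, chr3:50611775-50612024, on the minus strand and read 5′ to 3′ along the gene, with the copies in capitals.
CISH: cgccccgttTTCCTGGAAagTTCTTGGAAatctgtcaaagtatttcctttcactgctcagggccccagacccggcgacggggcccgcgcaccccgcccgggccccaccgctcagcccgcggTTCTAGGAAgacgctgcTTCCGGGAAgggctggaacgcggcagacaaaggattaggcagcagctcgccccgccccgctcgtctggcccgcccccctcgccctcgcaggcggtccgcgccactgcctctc
The copies begin 241, 230, 129 and 112 bases before the start. Of the 18 genes of the STAT5-regulated list, 12 matched the promoter table, and 3 of these (BCL6, CISH and TNFSF11) held the pattern. PIM1 was matched and its window held no copy, which says only that these letters are not in that window.

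Of 14 tested components of the JAK-STAT pathway itself, 1 lay above (JAK1, 11.44 to 11.82 against 10.59 to 11.28) and 2 below (STAT4 and PIAS3), against 6.3% and 6.99% of all genes. JAK2 was 8.30 to 8.88 in the kinase-lesion lines and 6.70 to 8.58 in the others, and STAT4 was 6.21 to 6.71 and 6.99 to 8.71. With median centring the STAT4 groups overlapped. Of 17 tested receptor adaptors and phosphatases and of 15 tested regulators of RAS, 0 separated the groups in either direction. The first of these lists had 2 members above without NOMO-1 and 5 above with median centring, where 13.9% of all genes lay above, and the second had 0 and 1. In the RAS list 0 members reached an unadjusted p under 0.05 by limma.

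The MAPK feedback list also holds immediate early genes and the cyclin CCND3, which is counted in the cell cycle list as well. Of its 23 tested genes, 3 lay above (DUSP2, FOS and CCND3, picked after their values were seen) and 0 below. The shares of all genes were 6.3% and 6.99%, and the list's median difference was 0.33. Without NOMO-1 there were 4 above and 3 below. FOS was 10.66 to 11.43 in the kinase-lesion lines and 8.30 to 10.09 in the others. EGR1, another immediate early transcription factor, was 12.86 in MV4-11 and 10.23 and 10.90 in the other kinase-lesion lines, with THP-1 at 11.61 among them. IER3, an immediate early survival gene, was 8.73 to 10.29 in the kinase-lesion lines and 6.32 to 7.44 in ML-2, SHI-1 and THP-1, with NOMO-1 at 9.58. The classical ERK feedback genes overlapped. DUSP6, an ERK phosphatase, was 10.40 to 12.58 against 9.96 to 13.12 (difference 0.15 ± 0.75), and SPRY4, a Sprouty inhibitor, was 6.31 to 7.07 against 6.11 to 8.57 (difference -0.60 ± 0.66).

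Among the 18 tested targets of KMT2A fusions, LAMP5 and FLT3 lay above and 0 lay below, against 6.3% and 6.99% of all genes. LAMP5, a lysosome-associated membrane protein, was 13.59 in EOL-1, 13.94 in MOLM-13 and 13.55 in MV4-11, against 13.09 in ML-2, 9.74 in NOMO-1, 4.77 in SHI-1 and 11.93 in THP-1. The gap to ML-2 was small, and the spread among the other KMT2A lines was wide. The cofactors MEIS1 and PBX3, which act with HOXA9, overlapped. MEIS1 was 7.26 in EOL-1 and 11.19 and 11.38 in MOLM-13 and MV4-11, while the other KMT2A lines split into NOMO-1 and SHI-1 at 10.79 and 11.86 and ML-2 and THP-1 at 5.25 and 4.47. PBX3 was 10.05 to 12.73 against 9.87 to 13.05. HOXA9 was not analysed here. DOT1L, the histone methyltransferase recruited by several KMT2A fusions, was 10.46 to 10.61 in the kinase-lesion lines and 10.67 to 11.67 in the others. The difference was -0.78 ± 0.35 (adjusted p = 0.475). With median centring the DOT1L groups overlapped and the difference was -0.30.

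Beside PIM1 and OSM, the 12 leading genes on the higher side, ranked by p among genes without overlap, were ENPP2, TRIM16, RPP40, FGL2, C1QBP, OPN3, HPD, MRPS12, CD180 and POP4. ENPP2 encodes autotaxin, the secreted enzyme that makes lysophosphatidic acid. Its level was 11.91 in EOL-1, 11.72 in MOLM-13 and 10.78 in MV4-11, against 6.46 in ML-2, 7.72 in NOMO-1, 4.64 in SHI-1 and 5.67 in THP-1. The groups did not overlap on either ENPP2 probe set, the second of which gave 12.58 to 13.72 against 4.09 to 6.09. The difference was 5.35 ± 0.71 (adjusted p = 0.0813). In the 25 remaining lines, 1 reached the level of the lowest kinase-lesion line.

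FGL2, a secreted fibrinogen-like immune regulator, was 12.75 in EOL-1, 12.78 in MOLM-13 and 12.78 in MV4-11, against 8.07 in ML-2, 10.47 in NOMO-1, 9.36 in SHI-1 and 7.37 in THP-1. These 3 levels were the highest of the 32 lines, and the difference was 3.95 ± 0.67 (adjusted p = 0.139). CD180, a Toll-like receptor homologue of B cells and myeloid cells, was 10.40 to 11.82 against 5.33 to 9.30, with NOMO-1 the highest of the other KMT2A lines. HPD, an enzyme of tyrosine breakdown, was 7.65 to 9.02 in the kinase-lesion lines and at most 6.31 in the 25 remaining lines. Of the other KMT2A lines ML-2 was highest for HPD, at 6.27, so all of them lay under the series median. HPD therefore entered the test only through the kinase-lesion lines, which fixed its separation. Its place among the leading genes is thus no support. TRIM16, a tripartite-motif ubiquitin ligase, was 10.95 to 12.08 against 7.86 to 9.33. OPN3, a non-visual opsin, was 11.93 to 13.11 against 8.59 to 10.47. IL7R, the interleukin-7 receptor alpha chain, was 9.63 in EOL-1, 10.32 in MOLM-13 and 8.30 in MV4-11, against 5.38 to 7.30 (difference 2.95 ± 0.65, adjusted p = 0.283). Only 1 of the 25 remaining lines reached the level of MV4-11.

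**Figure D2:**
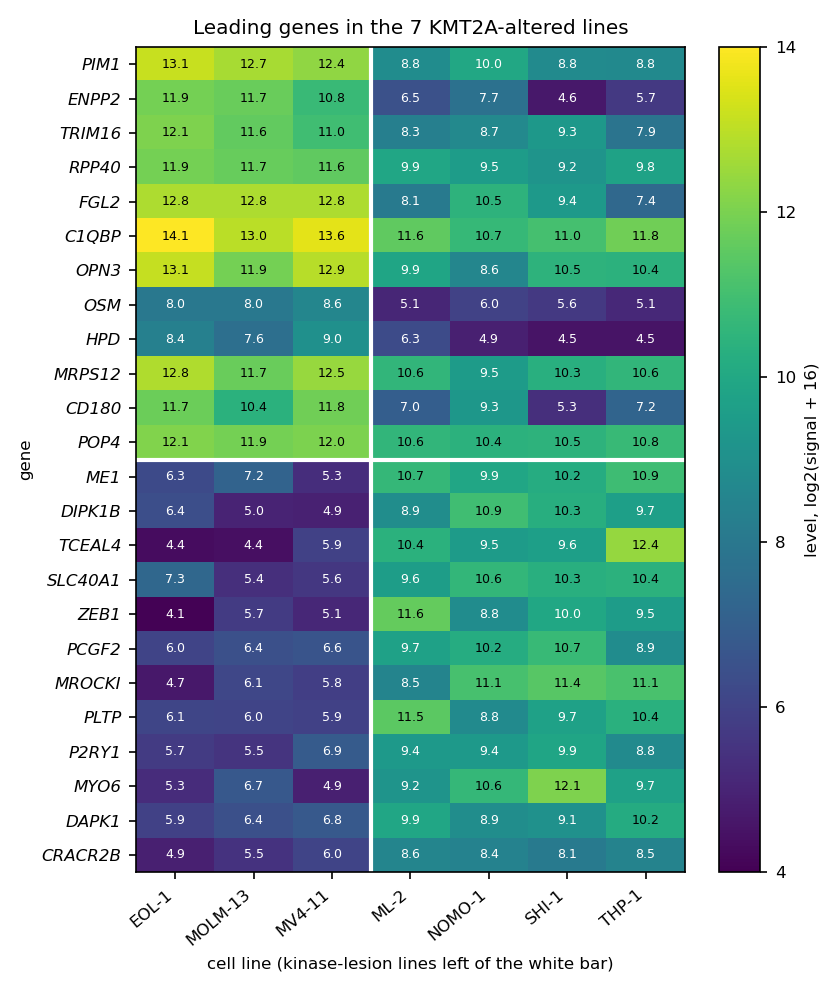
Levels in log2(signal + 16), written in each cell and coloured on one scale, of the 12 leading genes on the higher side (upper block) and the 12 on the lower side (lower block) in the 7 lines; the white vertical bar divides kinase-lesion lines (left) from other KMT2A lines (right). In the upper block every value left of the bar exceeds every value to its right, and in the lower block the order is turned, with most values on the left below the series median of 6.73.

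The genes on the lower side were mostly near the bottom of the scale in the kinase-lesion lines. ZEB1, TCEAL4, DIPK1B, MROCKI, PLTP, PCGF2 and CRACR2B lay under the series median in every kinase-lesion line. These genes entered the test through the other KMT2A lines alone. Their separation follows in part from the filter on level and is no support. ME1, the cytosolic malic enzyme that makes NADPH, was 6.26 in EOL-1, 7.18 in MOLM-13 and 5.31 in MV4-11, against 10.67 in ML-2, 9.93 in NOMO-1, 10.18 in SHI-1 and 10.89 in THP-1. The other KMT2A lines lay within 1 unit of one another and far above the rest of the 7, and the difference was -4.16 ± 0.53 (adjusted p = 0.0813). In the 25 remaining lines the ME1 median was 7.71, and 4 reached the lowest of the other KMT2A lines. ZEB1, a transcription factor that represses epithelial and some lymphoid genes, was 4.07 in EOL-1, 5.74 in MOLM-13 and 5.13 in MV4-11, against 11.65 in ML-2, 8.85 in NOMO-1, 9.96 in SHI-1 and 9.51 in THP-1. It was low in the kinase-lesion lines on each of its 4 probe sets, 3 of which separated the groups, and the difference was -5.01 ± 0.72 (adjusted p = 0.0922). Among the 25 remaining lines 3 lay below the highest kinase-lesion line, and their median was 10.26.

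SLC40A1, the iron exporter ferroportin, was 7.35 in EOL-1, 5.35 in MOLM-13 and 5.62 in MV4-11, against 9.56 in ML-2, 10.63 in NOMO-1, 10.31 in SHI-1 and 10.42 in THP-1. No kinase-lesion line came within 2 units of the other KMT2A lines, and the difference was -4.12 ± 0.57 (adjusted p = 0.0813). MYO6, an unconventional myosin, was 4.86 to 6.75 against 9.19 to 12.06, and all 3 of its probe sets separated the groups. PLTP, the phospholipid transfer protein, was 5.95 to 6.11 against 8.78 to 11.47. PCGF2, a Polycomb ring-finger protein, was 6.04 to 6.58 against 8.87 to 10.74. DAPK1, a death-associated kinase, was 5.92 to 6.81 against 8.90 to 10.15. P2RY1, an ADP receptor, was 5.50 to 6.87 against 8.78 to 9.90. DIPK1B was 4.90 to 6.41 against 8.91 to 10.93, and CRACR2B was 4.86 to 6.04 against 8.12 to 8.55.

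MROCKI, a long noncoding RNA named for its link to the MARCKS gene, was 4.66 in EOL-1, 6.14 in MOLM-13 and 5.84 in MV4-11, against 8.50 in ML-2, 11.09 in NOMO-1, 11.41 in SHI-1 and 11.12 in THP-1. ML-2 stood below the other 3 KMT2A lines but above every kinase-lesion line. MARCKS itself, looked up after these values were seen, did not follow MROCKI in EOL-1. On its probe set with the widest range it was 11.34 in EOL-1, 4.10 in MOLM-13 and 5.53 in MV4-11, against 6.09 in ML-2, 9.39 in NOMO-1, 12.41 in SHI-1 and 11.84 in THP-1. EOL-1 was thus low for MROCKI and high for MARCKS.

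All 24 leading genes kept their direction and their separation under quantile normalization and under median centring. The sizes within arrays of like GAPDH ratio are given as a description, since for genes without overlap the choice of genes fixes the sign in any subset of the lines. For PIM1 the difference was 3.97 on the arrays of low ratio (EOL-1 and MV4-11 against SHI-1) and 3.50 on those of high ratio (MOLM-13 against ML-2, NOMO-1 and THP-1). Within the lines with a KMT2A-MLLT3 fusion, MOLM-13 against NOMO-1 and THP-1, it was 3.33. The same comparisons gave 6.71, 5.10 and 5.02 for ENPP2 and -5.36, -4.27 and -3.44 for ZEB1. Each of these subsets leaves 1 line alone in a group. With the GAPDH ratio as a covariate PIM1 gave 3.66 with an adjusted p of 0.185.

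**Figure D3:**
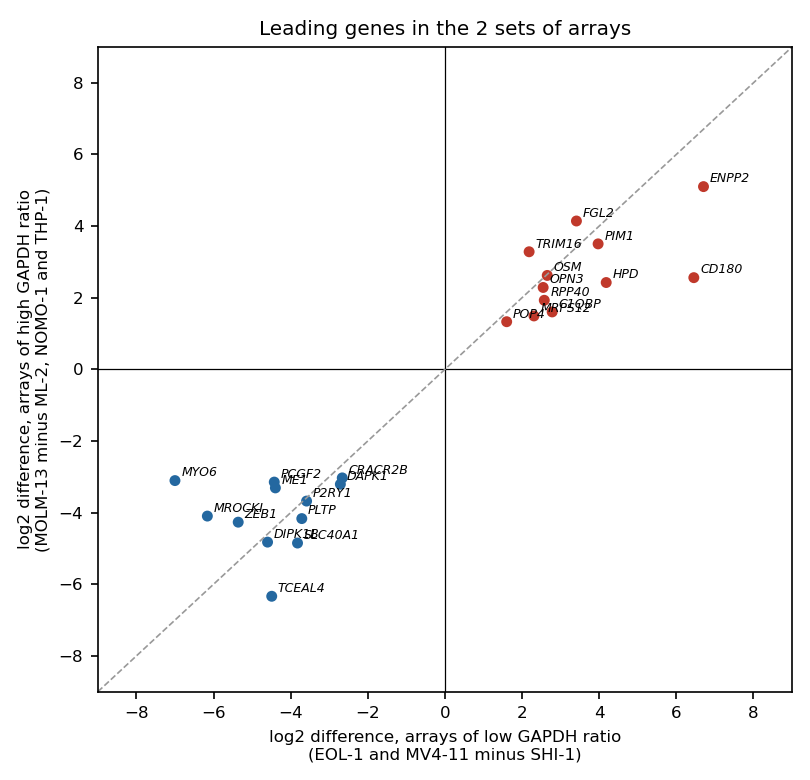
Differences on the log2 scale for the 24 leading genes in arrays of low GAPDH ratio (x axis, EOL-1 and MV4-11 minus SHI-1) and of high ratio (y axis, MOLM-13 minus ML-2, NOMO-1 and THP-1); red genes are higher and blue genes lower in the kinase-lesion lines, and the dashed line marks equal values. The signs are fixed by the choice of genes without overlap, and only the sizes can differ, CD180 at 6.45 and 2.56 and MYO6 at -7.00 and -3.11 being far from the line.

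Growth-related lists were counted in the same way. Of 27 cell cycle genes 5 lay above (CCND3, CDK1, CDKN1A, MCM4 and PCNA) and 0 below, with a median difference of 0.60. Of 25 MYC targets and ribosome biogenesis genes 5 lay above and 1 below, with a median of 0.57. RRP9, a nucleolar RNA-binding protein, was 10.15 to 10.35 in the kinase-lesion lines and 9.90 in ML-2, 9.59 in THP-1, 8.78 in SHI-1 and 6.70 in NOMO-1. CCNA1, the germ cell and myeloid cyclin A, was 11.39 to 11.56 against 6.21 to 11.78, with ML-2 above every kinase-lesion line. Of 27 genes of PI3K, mTOR and PIM substrates 4 lay above and 1 below, with a median of 0.00. PIK3R5, a regulatory subunit of PI3K gamma, was 10.42 to 10.67 against 8.07 to 10.00, NOMO-1 being the highest of the others, and 1 of its 3 probe sets separated the groups. These lists hold many genes of high level, for which 11.9% of genes lay above, and their counts without NOMO-1 were 5 above for the cell cycle, 5 for MYC targets and 4 for PI3K, against 7.97% of all genes. With quantile normalization they were 4, 2 and 4, against 6.55% of all genes.

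**Figure D4:**
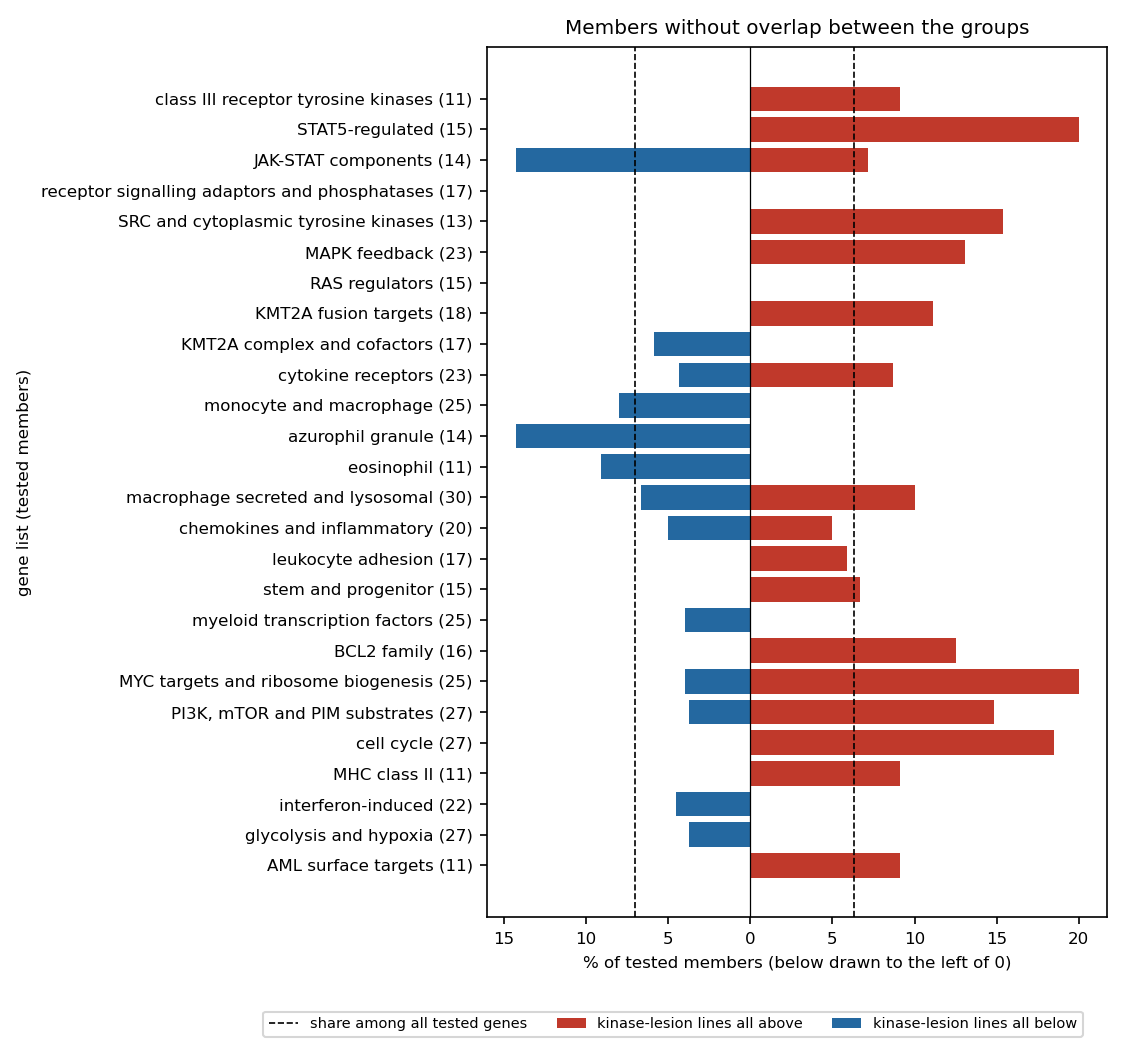
Share of tested members (x axis, %) whose levels in the 3 kinase-lesion lines lay all above (red, to the right) or all below (blue, to the left) those in the 4 other KMT2A lines, for each list with at least 10 tested members (number in brackets). Dashed lines mark the shares among all tested genes, 6.3% above and 6.99% below. STAT5-regulated, MYC target and cell cycle lists have the longest red bars. Adaptor and RAS regulator lists have no bar on either side. The KMT2A complex, monocyte, azurophil granule, eosinophil, myeloid transcription factor, interferon and glycolysis lists have no red bar either.

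Several leading genes on the higher side belong to the machinery of ribosomes and mitochondria, and their families were counted after this was seen. RPP40 and POP4 are subunits of the ribonucleases P and MRP, which process transfer and ribosomal RNA. RPP40 was 11.91 in EOL-1, 11.66 in MOLM-13 and 11.57 in MV4-11, against 9.90 in ML-2, 9.54 in NOMO-1, 9.16 in SHI-1 and 9.75 in THP-1. Each group was tight, and the difference was 2.12 ± 0.34 (adjusted p = 0.0998). POP4 was 11.91 to 12.09 against 10.43 to 10.75, but only 1 of its 2 probe sets had a positive difference. With the mean of both, the POP4 groups overlapped and the difference was 0.60. Of the 10 subunits tested 4 lay above and 0 below, against 6.3% of all genes above and 11.9% of the class of highest level. The subunits that lay above include RPP40 and POP4, which prompted the count, so the count is a description and no test.

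MRPS12, a protein of the small mitochondrial ribosomal subunit, was 12.80 in EOL-1, 11.72 in MOLM-13 and 12.46 in MV4-11, against 9.48 to 10.60. C1QBP, a mitochondrial matrix protein needed for mitochondrial translation, was 12.97 to 14.07 against 10.71 to 11.81. In the 25 remaining lines the C1QBP median was 13.06, and 15 of them reached the lowest kinase-lesion line. For MRPS12, RPP40 and POP4, 9, 8 and 1 of the 25 did so. Among all 75 mitochondrial ribosomal protein genes tested, 29 lay above and 0 below, and 71 had a positive difference with a median of 0.62. Without NOMO-1 30 lay above, and with quantile normalization 24. Of the 51 among the 25% of genes with the highest level, 19 lay above, where that class as a whole had 11.9%. The family was looked at because of MRPS12, so its count is a description and no test.

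CDKN1A, the p21 inhibitor of cyclin-dependent kinases, was 10.54 in EOL-1, 12.01 in MOLM-13 and 11.89 in MV4-11, against 9.84 in ML-2, 10.29 in NOMO-1, 8.50 in SHI-1 and 8.89 in THP-1. EOL-1 lay only slightly above NOMO-1, and the difference was 2.10 ± 0.55 (adjusted p = 0.351). BAX, a pro-apoptotic BCL2 family member, was 11.82 to 12.53 against 9.50 to 11.78, with ML-2 nearly level with EOL-1. Of 16 BCL2 family genes tested, 2 lay above, BAX and BID, and 0 below, against 6.3% and 6.99% of all genes. With quantile normalization 0 lay above, and with median centring 4.

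TCEAL4, a small X-linked nuclear protein, had the largest negative difference of the leading genes, -5.58 ± 0.77 (adjusted p = 0.0813). It was 4.35 in EOL-1, 4.42 in MOLM-13 and 5.93 in MV4-11, against 10.39 in ML-2, 9.48 in NOMO-1, 9.63 in SHI-1 and 12.40 in THP-1. Its neighbours of the TCEAL and BEX family did not all separate the groups. Of 7 tested, 2 lay below (TCEAL3 and TCEAL4), against 6.99% of all genes. All 7 had a negative difference, as had 6587 of the 12340 genes. The family was counted after TCEAL4 was seen, so its count is a description and no test. BEX3 was 13.22 in MV4-11 but 4.63 and 4.44 in EOL-1 and MOLM-13, and BEX1 was 13.30 to 14.89 in all 7 lines.

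**Figure D5:**
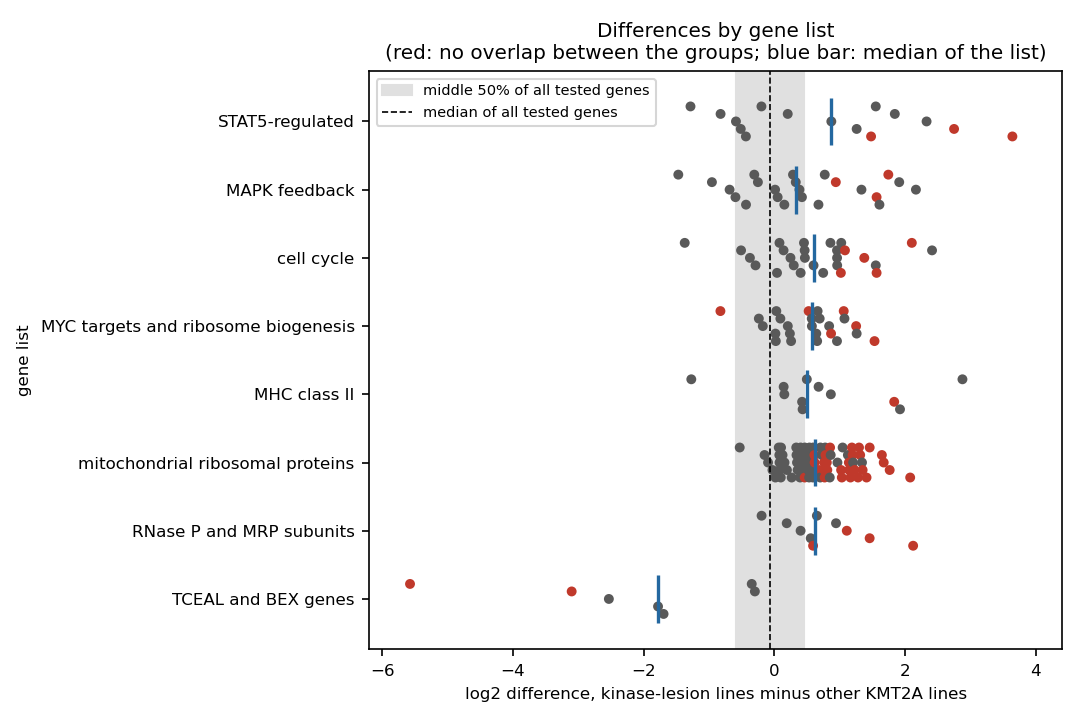
Difference on the log2 scale (x axis) of every tested gene of 8 lists, 1 point per gene, red where the groups did not overlap; blue bars are list medians, the grey band is the middle 50% of all tested genes and the dashed line their median (-0.07). The last 3 lists were assembled after the values of single members were seen. STAT5-regulated genes spread widely around a median of 0.87, mitochondrial ribosomal proteins lie in a narrow cloud around 0.62, and TCEAL and BEX genes lie below 0.

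Differentiation genes were counted next. Of 25 monocyte and macrophage genes 0 lay above and 2 below (LGALS3 and FPR1), against 6.3% and 6.99% of all genes, with a median of -0.38. Without NOMO-1 there were 2 above and 2 below, and the median was 0.06. LGALS3, the lectin galectin-3, was 7.02 in EOL-1, 10.43 in MOLM-13 and 7.62 in MV4-11, against 10.77 to 12.03. CTSL, a lysosomal protease, was 6.02 to 8.35 against 8.59 to 10.67, and overlapped with quantile normalization and with median centring. It belongs to a list of 30 macrophage secreted and lysosomal genes, of which 3 lay above and 2 below, against 6.3% and 6.99% of all genes. That list had 18 positive differences and a median of 0.38. Of 14 azurophil granule genes, with 7 positive and 7 negative differences and a median of -0.08, 0 lay above and 2 (against 6.99% of all genes) below, the defensin DEFA4 (5.52 to 6.48 against 7.51 to 15.64) and CEBPE, a transcription factor of granulocytes (6.68 to 7.03 against 7.33 to 10.82). MPO, the granule peroxidase, was 8.05 to 9.66 in the kinase-lesion lines and 15.09 to 15.32 in ML-2, NOMO-1 and SHI-1, but 8.08 in THP-1, so the groups overlapped. Without THP-1, MPO was the only gene called (adjusted p = 0.0045).

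ITGAL, the alpha chain of the integrin LFA-1, was 12.62 to 13.74 against 8.44 to 12.57, with NOMO-1 just below EOL-1, and overlapped with quantile normalization. PTK2, focal adhesion kinase, was 8.26 in EOL-1, 9.59 in MOLM-13 and 10.13 in MV4-11, against 4.31 in ML-2, 8.05 in NOMO-1, 5.90 in SHI-1 and 7.47 in THP-1, and 1 of its 4 probe sets separated the groups. OAS3, an interferon-induced enzyme, was 5.48 to 6.54 against 7.60 to 9.87, and overlapped with quantile normalization and with median centring. It was the 1 of 22 interferon-induced genes that lay below, against 6.99% of all genes. CXCL1, a neutrophil chemokine, was 5.02 to 6.11 against 6.44 to 10.80, and overlapped with both of these scalings. The housekeeping enzyme GAPDH was 14.51 to 15.16 against 14.63 to 15.14, a difference of -0.04 ± 0.29.

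The MHC class II values changed when NOMO-1 was left out. Of 11 tested, 1 lay above in all kinase-lesion lines, against 6.3% of all genes. This was CD74, the invariant chain (11.26 to 13.08 against 8.85 to 10.87). Without NOMO-1 there were 4 above, against 7.97% of all genes, and the median difference went from 0.49 to 1.49. Leaving out a line makes non-overlap easier by construction. HLA-DRA, the alpha chain of HLA-DR, was 14.32 in EOL-1, 9.87 in MOLM-13 and 8.47 in MV4-11, against 7.40 in ML-2, 10.71 in NOMO-1, 6.83 in SHI-1 and 7.10 in THP-1. EOL-1 was 12.2-fold above NOMO-1, the next line. HLA-DRB1 was 13.98 in EOL-1 and 12.22 and 11.98 in NOMO-1 and THP-1, above the 10.86 and 10.36 of MOLM-13 and MV4-11.

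The kinase-lesion lines also differed among themselves. The genes that set 1 of them farthest above the other 6 lines were, for EOL-1, PAX8-AS1, HLA-DRA, MAN1A1, MPEG1 and GCH1. MPEG1, a perforin of macrophages, was 12.52 in EOL-1, 9.12 and 9.36 in MOLM-13 and MV4-11, and 5.53 to 8.59 in the other KMT2A lines, so it separated the groups as well. For MOLM-13 they included PROK2, NAPSB, ATP6V1C2 and STON1. STON1, an endocytic adaptor, was 11.39 in MOLM-13 and 9.48 and 7.13 in EOL-1 and MV4-11, against 5.26 to 6.13. For MV4-11 they were CDKN2A, NDN, UGCG, EGR3 and CSPG4. CDKN2A, the locus of the cell cycle inhibitor p16, was 12.15 in MV4-11 and 6.57 to 8.42 in the other 6 lines. CSPG4, the surface proteoglycan NG2, was 10.50 in MV4-11 and 4.86 to 8.50 in the other 6 lines.

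Over the 12340 tested genes the kinase-lesion lines resembled one another most. As a description, Pearson's r was 0.918 for MOLM-13 with MV4-11, 0.903 for EOL-1 with MV4-11 and 0.890 for EOL-1 with MOLM-13, the 3 highest of the 21 pairs. The next pair crossed the groups, MV4-11 with THP-1 at 0.886. Within the other KMT2A lines r was 0.646 to 0.838, and without NOMO-1 0.806 to 0.838. The pairs that held NOMO-1 lay at 0.611 to 0.681. Points share the platform's probe sets, and the NOMO-1 array its high median signal.

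Outside the comparison, PL-21 is a further line known for FLT3-ITD, and its values were looked up after the others were seen. It stood at 9.48 for PIM1, 10.15 for CISH and 5.09 for OSM, below every kinase-lesion KMT2A line for all 3 genes, while FLT3 was 11.28. PL-21 was 18th of the 32 lines for PIM1, where EOL-1, MOLM-13 and MV4-11 were 4th, 9th and 12th. HEL and SET2, known for an activating JAK2 mutation, and HNT-34, known for BCR-ABL1, reached 12.45, 12.08 and 12.71 for PIM1. KASUMI-1, also looked up as a line known for an active tyrosine kinase, was at 8.996 for PIM1. For CISH, HEL, SET2, HNT-34 and KASUMI-1 stood at 10.41, 11.35, 11.14 and 10.61. For OSM they stood at 4.78, 6.74, 4.82 and 6.32, below every kinase-lesion KMT2A line.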

How the data were processed

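Total RNA of 32 lines was hybridised to Affymetrix arrays, with 1 array for each. The authors deposited linear signal intensity per probe set. Affymetrix Expression Console is named in the submitters' processing notes; version and summarization method are not given in the sources used here. The mean after trimming 2% at each end was 500 to 500.1 on every array. These deposited intensities were transformed to log2(signal + 16) without further scaling. Each of 19775 genes was represented by its single-symbol probe set of highest mean over the 32 arrays. Genes above the median of all probe sets (6.73) in at least 3 of the 7 lines were tested, 12340 in all. A gene low in every line of 1 group could thus enter through the other group alone. Its separation then follows in part from this filter and is no support. Groups were compared with limma 3.58.1 in R 4.3.3 (lmFit, eBayes with a mean trend), two-sided with Benjamini-Hochberg adjustment at 0.05, and the fit was tested on simulated data. Lines are the replicates, and p-values measure the spread between these lines; the number of arrays limits the precision. Single quality values were compared by exact permutation over 35 arrangements, for which 0.0286 is the smallest possible p.

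Named genes were up to 12 each way without overlap, ranked by p where none passed, the 2 largest differences in each of 31 gene lists, a fixed set of receptor, PIM, feedback and cofactor genes, and up to 5 genes that set each kinase-lesion line apart. The text marks further genes as picked with their values in view. The members, lists and rules were all chosen with earlier results of these data known. Alternatives were another pseudocount, scaling, filter, probe set rule, covariate, array weights, all 32 arrays, subsets of arrays and each line left out. Promoter sequence came from the RefSeq table for GRCh38.p14. Y-linked genes were left out of named genes, and 1 named gene is not reported here. Plots used matplotlib 3.10.9.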

Additional observations from a re-analysis of the deposited data

Results flagged for a closer look

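In 7 of 103 genes looked at, 1 of the 4 other KMT2A lines stood far from the remaining 3 by Dixon's criterion for 4 values; chance flags about 1 in 20. NOMO-1 was high for PIM1 at 9.997 (the other 3 lay at 8.75 to 8.85) and for HLA-DRA at 10.713 (6.83 to 7.40). ML-2 was low for MROCKI at 8.5 (11.09 to 11.41), for RAB27B, a secretory GTPase, at 6.425 (9.05 to 9.58) and for ATP6V1C2, a proton pump subunit, at 5.229 (7.56 to 7.61). SHI-1 was low for GRB10, a receptor adaptor, at 4.65 (9.52 to 9.99). THP-1 was low for MPO at 8.083 (15.09 to 15.32). The NOMO-1 array also had the highest median signal of the 7, and its part in these values was not tested.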

How the results depend on the processing

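The count of genes called, 0 as reported, was 16 within the MLLT3 fusion lines (1 higher, 15 lower), 26 with array weights (10 higher, 16 lower), 3 with all 32 arrays, 2 each with the mean of all probe sets, median centring and a pseudocount of 64, and 1 with the probe set chosen over the 7 lines. Leaving out 1 line gave 0 to 1: PIM1 without NOMO-1, MPO without THP-1, GTSF1 without MV4-11 and MROCKI without ML-2. ENPP2 was called under 6 of 22 alternatives and PIM1 under 5. Adjusted p for PIM1 ranged from 0.00739 to 1.00, and its difference from 3.33 to 4.13. Genes all above numbered 1715 with median centring, 3488 within the MLLT3 fusion lines, 2579 on arrays of high GAPDH ratio and 4403 on those of low ratio. Genes all below numbered 301, 3819, 2873 and 5189 in the same order, and 1493 with no filter on level. With 1 line left out they were 983 to 1313 above and 1141 to 1523 below, most without THP-1; fewer lines make non-overlap easier by construction.

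Of 62 gene differences followed, 44 were of genes without overlap, whose sign is fixed in any subset of the lines and at any pseudocount; 39 of these 44 stayed separated under quantile normalization and 39 under median centring. Of 18 with overlap 10 changed sign; the cause was not tested. With the GAPDH covariate KIT gave -0.86, PBX3 -0.37, DUSP6 -0.81 and GAPDH 0.08. Within the MLLT3 fusion lines HLA-DRB1 gave -1.25, KIT -3.44, CSF1R -0.83, PIM2 -0.14, DUSP6 -0.35 and GAPDH 0.39. On arrays of high ratio KIT gave -1.74, PIM2 -0.34, DUSP6 -0.38 and GAPDH 0.26, and on those of low ratio PIM3 gave 0.31, MEIS1 -2.54, PBX3 -1.96, SOCS2 -0.82 and DUSP6 -1.04. GAPDH gave 0.11 with the mean of all probe sets and 0.45 with median centring, where PIM3 gave 0.29, and KIT gave -0.17 with a pseudocount of 64. With 1 line left out the ranges were -0.94 to 0.81 for KIT, -0.25 to 0.88 for CSF1R, -0.37 to 0.96 for PBX3, -0.38 to 0.73 for DUSP6, -0.024 to 1.46 for SOCS2 and -0.17 to 0.15 for GAPDH. No paired analysis was possible because each line has 1 array and stands for 1 patient's leukaemia. The arrays give no detection call, so levels near the bottom of the scale are not shown to be above background.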
